A study of Mus musculus with 6 samples.

Results

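The genes described here were 10 noncoding host RNAs of small nucleolar RNAs (snoRNAs), namely Zfas1, 2410006H16Rik, Snhg1, Snhg5, Snhg6, Gas5, Snhg8, Epb41l4aos, Snhg3 and Snhg12. They were 10 of the 54532 genes in the deposited table, and 9 of them were among the 13444 genes that passed the filter on low counts. They were chosen by their gene names from a list drawn up with the difference between S34F and WT cells in these libraries in view. The difference of each host RNA between the groups is therefore given as a description, with no p-value, and the number past the threshold is given once, beside the share of all genes, with nothing read from it. The libraries came from 32D cells, a mouse myeloblast-like line that depends on interleukin-3 for growth. In 3 libraries the cells carried human U2AF1 with the S34F substitution (S34F), and in 3 they carried human wild-type U2AF1 (WT). Both groups were transduced with the retroviral vector MSCV-IRES-GFP, were grown with interleukin-3 and serum, and expressed their own mouse U2af1 gene. Clones, GFP sorting and separate cultures are not named in the labels, and any p-value here covers only variation among these libraries, part of which may be technical.

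Most vertebrate snoRNAs are cut from introns of longer host genes. Box C/D snoRNAs guide methylation and box H/ACA snoRNAs guide pseudouridylation of ribosomal and other RNAs. The spliced exons of a noncoding host reach the cytoplasm with only short reading frames, and in mammalian cells many such RNAs are destroyed when ribosomes stop early on them, by nonsense-mediated decay. Many hosts belong to the TOP class of genes, whose RNAs begin with a C followed by a run of pyrimidines and follow cell growth. U2AF1 recognises the AG at the 3' end of introns, and the S34F substitution, recurrent in myeloid malignancies, changes which bases beside that AG are favoured.

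The snoRNAs inside Zfas1 and 2410006H16Rik are shown first, because these hosts had the largest differences between S34F and WT cells. All sequences run 5' to 3' and come from GENCODE M21 (mm10). Capitals mark a C box, searched as TGATGA in the first 20 bases, and a D box, searched as the last CTGA within the final 20 bases, on the transcribed strand alone.
Gm25878 (Zfas1, chr2:167063473-167063565): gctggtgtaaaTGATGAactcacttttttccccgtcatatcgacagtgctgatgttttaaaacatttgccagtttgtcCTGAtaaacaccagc
Gm23201 (Zfas1, chr2:167064998-167065086): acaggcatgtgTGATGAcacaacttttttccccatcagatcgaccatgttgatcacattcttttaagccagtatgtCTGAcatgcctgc
Snord12 (Zfas1, chr2:167065276-167065365): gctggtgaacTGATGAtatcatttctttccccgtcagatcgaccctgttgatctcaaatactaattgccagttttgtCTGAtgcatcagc
Snord49b (2410006H16Rik, chr11:62603079-62603150): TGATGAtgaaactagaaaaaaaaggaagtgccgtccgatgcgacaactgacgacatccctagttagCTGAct
Snord49a (2410006H16Rik, chr11:62603450-62603521): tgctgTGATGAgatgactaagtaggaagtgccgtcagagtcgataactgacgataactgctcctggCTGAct
Snord65 (2410006H16Rik, chr11:62604515-62604586): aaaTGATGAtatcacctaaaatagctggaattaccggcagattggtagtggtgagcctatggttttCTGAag
All 6 are on the plus strand and hold both boxes. Across the host RNAs, 24 of 27 snoRNA records of 60 to 100 bases held both, against 64.8% of the 454 annotated mouse snoRNA genes of that length.

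The starts of several hosts are shown next, because the pyrimidine run at the start of an RNA defines the TOP class. Each window holds the 30 bases before the annotated start and the 40 from it on the gene's strand, from RefSeq on GRCm38.p6. Capitals mark a run that opens with a C within 5 bases of the start and goes on with at least 4 bases that are each C or T.
2410006H16Rik (chr11:62602847-62602916, plus strand): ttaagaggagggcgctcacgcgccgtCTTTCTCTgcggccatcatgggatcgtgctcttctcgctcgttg
Snhg12 (chr4:132308648-132308717, plus strand): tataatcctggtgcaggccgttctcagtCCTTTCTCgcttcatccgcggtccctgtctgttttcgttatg
Snhg8 (chr3:123508297-123508366, minus strand): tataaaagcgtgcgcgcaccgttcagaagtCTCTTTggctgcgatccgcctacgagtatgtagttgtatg
Gas5, the second of its 2 starts (chr1:161035136-161035205, plus strand): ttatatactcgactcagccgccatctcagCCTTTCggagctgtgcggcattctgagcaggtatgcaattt
Zfas1 (chr2:167062904-167062973, plus strand): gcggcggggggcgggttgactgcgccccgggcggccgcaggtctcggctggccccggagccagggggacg
The run was found at 5 of the 9 starts listed for the host RNAs, in Gas5, Snhg8, Snhg12, Snhg3 and 2410006H16Rik. No start was listed for Snhg6 or Epb41l4aos. It was found at 18.3% of all 32851 mouse starts in the table and at 42.5% of the 73 starts of ribosomal protein genes. No such run lay within 5 bases of the listed starts of Zfas1, Snhg1 and Snhg5 or of the other start of Gas5. The part of the run in the differences between S34F and WT cells was not tested.

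The reading frames that a ribosome would meet first in the spliced RNAs are shown because a stop codon upstream of an exon junction is the textbook trigger of nonsense-mediated decay. Capitals mark the first ATG to its stop codon in the GENCODE M21 transcript. Gas5-201 is the only 1 of the 25 Gas5 transcripts with no junction more than 50 bases past the stop, and it is printed for its frame, which other Gas5 transcripts share.
Snhg8-201: ccgcctacgagtATGTAGttgtat
Gas5-201: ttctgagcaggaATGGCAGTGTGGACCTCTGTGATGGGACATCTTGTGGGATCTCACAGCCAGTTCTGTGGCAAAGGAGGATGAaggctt
Zfas1-204: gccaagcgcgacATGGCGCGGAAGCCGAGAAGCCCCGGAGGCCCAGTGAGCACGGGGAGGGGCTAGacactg
2410006H16Rik-201: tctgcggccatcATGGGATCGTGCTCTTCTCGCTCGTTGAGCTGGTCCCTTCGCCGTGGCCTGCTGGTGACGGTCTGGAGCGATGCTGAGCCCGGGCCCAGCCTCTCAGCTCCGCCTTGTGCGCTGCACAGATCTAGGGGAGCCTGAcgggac
The frame was 1 codon long in Snhg8, 23 codons in Gas5, 17 in Zfas1 and 44 in 2410006H16Rik, not counting the stop. The Gas5 frame was the first in 16 of its 25 spliced transcripts and the Zfas1 frame in 2 of 5. Over the 10 host RNAs, 69 of 79 spliced transcripts (87.3%) had the first stop more than 50 bases upstream of an exon junction. The hosts were listed as known substrates of this decay, so a high share may follow from that choice and supports nothing. The 79 are also transcripts and not independent genes, with 25 from Gas5 and 18 from Snhg1. The share was 70.3% of 3332 spliced transcripts of other noncoding genes and 52.7% of 37309 spliced transcripts of protein-coding genes, where the first ATG is often not the one used. By gene, the count was 5 of 5 in Zfas1, 1 of 1 in 2410006H16Rik, 24 of 25 in Gas5, 15 of 18 in Snhg1 and 9 of 10 in Snhg12. It was 5 of 6 in Snhg5, 4 of 5 in Snhg6, 2 of 5 in Snhg3, and all spliced transcripts in Snhg8 (2 of 2) and Epb41l4aos (2 of 2). Most spliced transcripts had the feature, so it could hardly separate the hosts. Its part in the differences between S34F and WT cells was not tested.

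**Figure D1:**
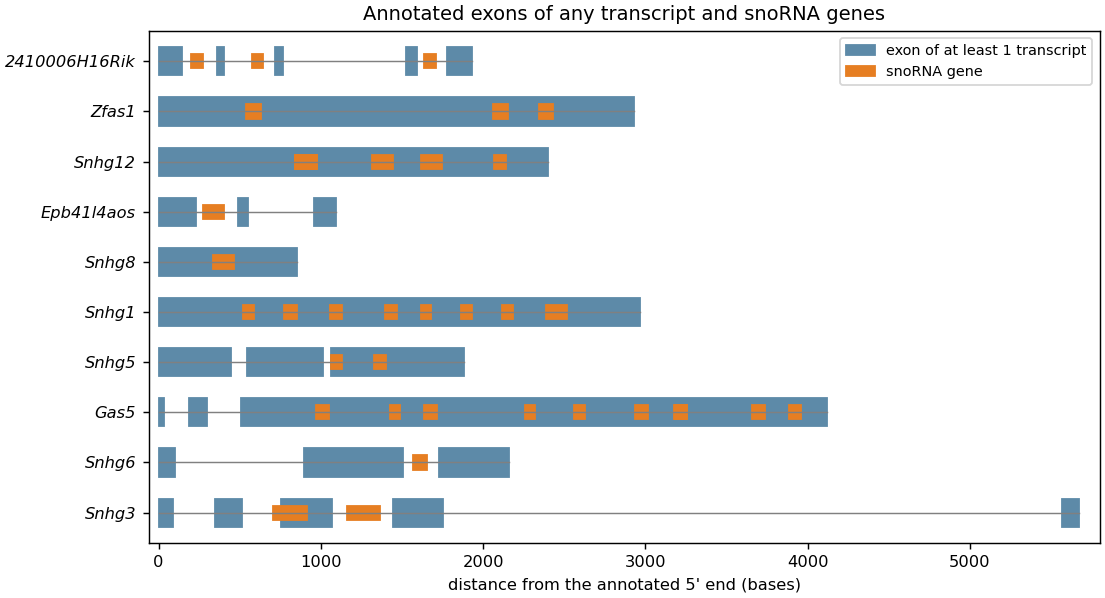
Annotated exons (blue, exons of any transcript) and snoRNA genes (orange) of the 10 host RNAs, by distance in bases from the annotated 5' end. In Zfas1, Snhg1, Snhg8 and Snhg12 retained-intron transcripts make the whole gene exonic, so the snoRNAs lie inside annotated exons, whereas in 2410006H16Rik and Epb41l4aos they lie between exons.

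Library totals lay between 16716979 and 19129250 counts in S34F and between 16509899 and 18119760 in WT. A single count equalled 0.0520 to 0.0608 CPM, the count scaled to TMM-normalised library size. Counts of WT replicates 2 and 3 differed little from one another (chi-square per degree of freedom 2.30), while same-group pairs otherwise reached 24.7 to 39.8. The gene U2af1 averaged 80.3 CPM in S34F and 71.1 in WT cells. Gene counts do not show the human allele, and whether its reads were partly counted under U2af1 is not known. Of 10 myeloblast markers 7 passed the filter. Ptprc, which encodes the leukocyte surface protein CD45, lay at 446 to 562 CPM in S34F and 323 to 527 CPM in WT, and the interleukin-3 receptor subunit gene Csf2rb at 575 to 831 CPM in S34F and 570 to 634 CPM in WT. Cebpa was at 0, and Kit and Elane were at or near 0 in all libraries. The T and B cell markers Cd3e, Cd3g and Ms4a1 were at 0, and the highest values in that list were 1.06 CPM for Trac and 1.24 CPM for Cd79b, both in WT. Of 7 fibroblast markers Col3a1, Pdgfra, Dcn and Lum were at 0, whereas Pdgfrb lay at 4.12 to 17.6 CPM in S34F and 7.12 to 12.002 CPM in WT and Col1a1 at 0.597 to 3.07 CPM in S34F and 1.70 to 2.77 CPM in WT.

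Zfas1 and 2410006H16Rik were higher in every S34F library than in any WT library, at 2.04 and 2.87 times the WT level. Snhg8 and Epb41l4aos were at 1.78 and 1.79 times the WT level, Snhg12 had a similar difference with a wider spread, and Snhg1, Snhg5, Gas5 and Snhg6 had overlapping groups. Among the 9 host RNAs tested, 3 had an adjusted p under 0.05 and were higher in S34F (edgeR quasi-likelihood test, Benjamini-Hochberg over all genes), against a background of 1.58% of genes higher. None was lower, against 0.595% of genes. All 3 S34F libraries lay above all 3 WT libraries for 5 of the 9, against 14% of all genes tested, and below them for 0 of the 9, against 13.1%. The median log2 fold change of the 9 was 0.83, and that of all genes tested was 0.00052. Because this contrast was in view when the host RNAs were listed, nothing is read from these counts. In such bulk libraries more RNA per cell and more cells of a kind cannot be told apart.

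**Figure D2:**
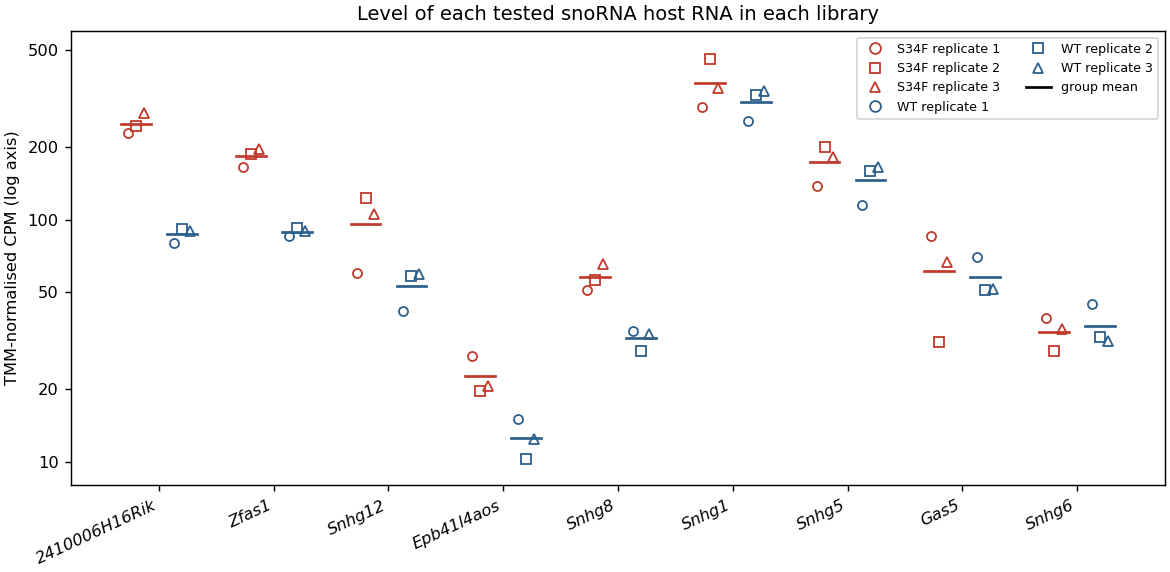
TMM-normalised CPM (log axis) of the 9 tested host RNAs, with 1 point per library, S34F (red) left of WT (blue) for each gene, and a line at the mean of each group of 3. The 2410006H16Rik points lie at 227 to 277 CPM in S34F and 79.7 to 91.4 in WT, while the groups of Snhg1, Snhg5, Gas5 and Snhg6 overlap.

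Among hosts of box C/D snoRNAs, 2410006H16Rik (ENSMUSG00000086841, chromosome 11, 62602877 to 62604807, plus strand, mm10) carries Snord49b, Snord49a and Snord65 in its introns. Its level was 227, 243 and 277 CPM in S34F cells (libraries in replicate order here and below), against 79.7, 91.4 and 89.5 CPM in WT cells. The lowest S34F library lay well above the highest WT library. S34F exceeded WT by 1.52 ± 0.12 (SE) on the log2 scale, with means of 249 ± 25.1 CPM in S34F and 86.9 ± 6.26 CPM in WT (SD, n = 3 each). Under the 16 alternatives it stayed between 1.41 and 1.57.

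The 3 snoRNAs of 2410006H16Rik offer a readout that was not used to choose the host, since they are counted as genes of their own and lie outside its exons. Snord49a had 65, 43 and 62 counts in S34F and 62, 43 and 66 in WT, and the groups overlapped. Its log2 fold change was -0.04 ± 0.30 (SE, n = 3 each, edgeR adjusted p = 0.952). Snord49b had 20, 15 and 25 counts in S34F and 7, 28 and 10 in WT, with a log2 fold change of 0.37 ± 0.55 (adjusted p = 0.731). Snord65 had 19, 14 and 11 counts in S34F and 4, 14 and 8 in WT, with a log2 fold change of 0.70 ± 0.50 (adjusted p = 0.442). None of the 3 passed the test, on few counts from messenger RNA libraries that were not made for short RNAs. Single libraries moved the values: Snord49b lay between 0.06 without WT replicate 1 and 1.20 without WT replicate 2, Snord65 between 0.39 and 1.25 on leaving out the same libraries, and Snord49a between -0.20 without WT replicate 2 and 0.17 without S34F replicate 2. Whether the snoRNAs and their host differ in response was not tested.

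Zfas1 (ENSMUSG00000074578, chromosome 2, 167062934 to 167065862, plus strand), which restrains growth in mouse mammary epithelium, starts beside Znfx1 on the opposite strand and hosts Snord12 and its relatives. Zfas1 had 165, 187 and 195 CPM in S34F cells, against 85.6, 92.3 and 89.7 CPM in WT cells. Every S34F library was far above every WT library, and the spread within the groups was the smallest of the 9, with an SD of 0.097 on the log2 scale. S34F exceeded WT by 1.03 ± 0.11 (SE) on the log2 scale, with means of 182 ± 15.6 CPM in S34F and 89.2 ± 3.40 CPM in WT (SD, n = 3 each), and it stayed between 0.98 and 1.09 under the 16 alternatives. The overlap with Znfx1 covers 82 bases, or 2.80% of the exons of Zfas1. Znfx1 itself had 885, 954 and 955 counts in S34F and 815, 834 and 858 in WT, a log2 fold change of 0.11 ± 0.11 (SE, edgeR adjusted p = 0.600).

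Snhg1 (ENSMUSG00000108414, chromosome 19, 8723475 to 8726443, plus strand), the host of Snord22, was the most counted of the 9. It had 291, 459 and 351 CPM in S34F and 256, 326 and 339 CPM in WT. The groups overlapped, with replicate 1 the lowest of its group in both. On the log2 scale the fold change was 0.26 ± 0.18 (SE), and under the alternatives it ran from 0.07 without S34F replicate 2 to 0.42 with the GC trend removed.

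Snhg5 (ENSMUSG00000097195, chromosome 9, 88521050 to 88522929, minus strand), host of Snord50a and Snord50b, had 137, 199 and 182 CPM in S34F and 115, 159 and 164 CPM in WT. Here too the groups overlapped and replicate 1 was the lowest of each group. On the log2 scale the fold change was 0.24 ± 0.18 (SE), with a range of 0.10 to 0.37 under the alternatives.

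Gas5 (ENSMUSG00000053332, chromosome 1, 161034422 to 161038539, plus strand) was named for its accumulation in growth-arrested mouse cells and carries the most snoRNAs of the 10, with 9 separate snoRNA positions. It had 85.1, 31.1 and 66.8 CPM in S34F and 70.1, 51.4 and 51.7 CPM in WT. S34F replicate 1 was the highest and S34F replicate 2 the lowest of all 6 libraries, and the WT libraries lay between them. Gas5 thus had a log2 fold change of 0.08 ± 0.31 (SE), and its sign changed in 4 of the 16 alternatives, from -0.25 without S34F replicate 1 to 0.40 without S34F replicate 2.

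Snhg6 (ENSMUSG00000098234, chromosome 1, 9941959 to 9944118, minus strand), host of Snord87, had 39.4, 28.7 and 35.2 CPM in S34F and 44.8, 32.6 and 31.6 CPM in WT. The groups overlapped, and replicate 1 was the highest of each. Snhg6 had a log2 fold change of -0.08 ± 0.18 (SE), with a sign that changed in 3 of the 16 alternatives. A stretch of 127 bases, 11.1% of its exons, lies opposite Mcmdc2, which averaged 0.237 CPM.

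Among hosts of box H/ACA snoRNAs, Snhg8 (ENSMUSG00000104960, chromosome 3, 123507552 to 123508404, minus strand) carries Snora24. It had 51.2, 56.4 and 65.4 CPM in S34F and 34.6, 28.7 and 33.8 CPM in WT, with no overlap between the groups. The fitted log2 fold change was 0.83 ± 0.14 (SE), from means of 57.7 ± 7.16 CPM in S34F and 32.4 ± 3.17 CPM in WT (SD, n = 3 each). Its size stayed between 0.73 and 0.90 under the alternatives. With WT replicates 2 and 3 summed it was 0.81 ± 0.17.

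Epb41l4aos (ENSMUSG00000087590, chromosome 18, 33794892 to 33795986, plus strand) holds the snoRNA gene Gm23639 in an intron. It had 27.3, 19.6 and 20.6 CPM in S34F and 15.0, 10.3 and 12.4 CPM in WT, without overlap and with replicate 1 the highest of each group. The fitted log2 fold change was 0.84 ± 0.20 (SE), from means of 22.5 ± 4.19 CPM in S34F and 12.6 ± 2.39 CPM in WT (SD, n = 3 each). It was 0.84 ± 0.15 with the replicate block and lay between 0.67 without S34F replicate 1 and 0.99 without WT replicate 1. Gm23639 itself had 27, 18 and 18 counts in S34F and 21, 18 and 15 in WT, with a log2 fold change of 0.17 ± 0.36 (SE, edgeR adjusted p = 0.825).

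Snhg3 (ENSMUSG00000085241, chromosome 4, 132348014 to 132353686, minus strand), host of Snora73a and Snora73b, had 4, 4 and 0 counts in S34F and 4, 5 and 2 in WT and did not pass the filter. Its exons overlap those of Rcc1 on the same strand over 13.7% and those of Gm17300 on the opposite strand over 71.5% of their length. Rcc1, which encodes the chromatin-bound exchange factor of Ran, averaged 153 CPM. How reads in shared bases were counted is not given in the sources used here, so the low count of Snhg3 is not read as a low level of its RNA.

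Snhg12 (ENSMUSG00000086290, chromosome 4, 132308623 to 132311024, plus strand) carries both kinds, with Snora16a, Snora44, Snora61 and Snord99. It had 60.1, 123 and 106 CPM in S34F and 42.1, 58.4 and 59.6 CPM in WT. The lowest S34F library lay just above the highest WT library, and replicate 1 was the lowest of both groups. The fitted log2 fold change was 0.85 ± 0.25 (SE), from means of 96.3 ± 32.5 CPM in S34F and 53.4 ± 9.78 CPM in WT (SD, n = 3 each). It was 0.81 ± 0.12 with the replicate block. Left-out libraries moved it between 0.64 without S34F replicate 2 and 1.09 without S34F replicate 1.

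Levels can be compared between hosts only per length of exon, which here includes the retained-intron transcripts and so lowers the values of hosts that have them. In CPM per kilobase, 2410006H16Rik was highest, at 539 in S34F and 188 in WT cells. In S34F cells Snhg1 (124), Snhg5 (99.8), Snhg8 (67.6), Zfas1 (62.2), Epb41l4aos (52.3), Snhg12 (40.1) and Snhg6 (30.04) followed, and Gas5 was lowest (16.2). Ranges over the 3 S34F libraries did not overlap between 2410006H16Rik and Snhg1, between Snhg5 and Snhg8 or between Snhg6 and Gas5, and all other neighbours in this order overlapped. In WT cells the order after 2410006H16Rik was Snhg1 (103), Snhg5 (84.5), Snhg8 (38.0), Snhg6 (31.7), Zfas1 (30.5), Epb41l4aos (29.2), Snhg12 (22.2) and Gas5 (15.4). There the 2410006H16Rik range again lay apart from that of Snhg1 and the Snhg5 range apart from that of Snhg8, and all others overlapped their neighbour. Zfas1 stood above Snhg6 in S34F cells and just below it in WT cells.

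The host RNAs did not follow a single pattern over the 6 libraries. Zfas1 and 2410006H16Rik had a Pearson correlation of 0.998 and Zfas1 and Snhg8 one of 0.962, on log2(CPM + 0.5), and these 3 were split by group. Snhg1 and Snhg5 correlated at 0.948 and Snhg5 and Snhg12 at 0.904, and these 3 were lowest in WT replicate 1 and highest in S34F replicate 2. Gas5 ran opposite to Snhg1 (-0.853) and with Snhg6 (0.837), being lowest in S34F replicate 2. These are descriptions over 6 libraries that share their reads' library and the difference between the groups. Within groups the median SD of the 9 was 0.26 on the log2 scale, against 0.17 for the 8908 genes of at least 10 CPM, and it ran from 0.097 in Zfas1 to 0.56 in Gas5.

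**Figure D3:**
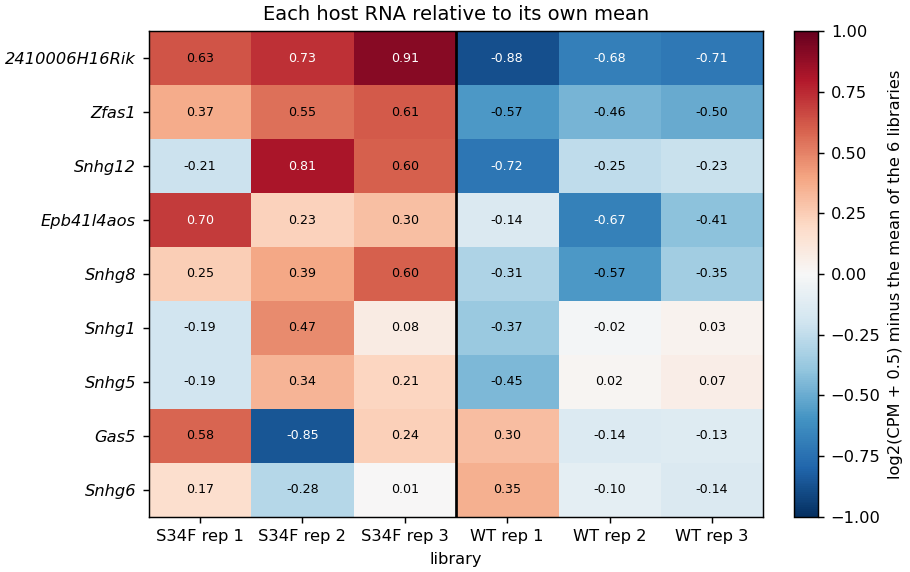
Each tested host RNA (rows) in each library (columns, S34F left of WT), as log2(CPM + 0.5) minus the mean of its 6 libraries, from blue (lower) to red (higher). The rows of 2410006H16Rik, Zfas1 and Snhg8 split at the line between the groups, whereas Gas5 is at 0.58 in S34F replicate 1 and -0.85 in S34F replicate 2.

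Outside the 10 host RNAs, the genes nearest to the mean profile of the 9 were Tpx2, Tarm1, Nampt, Speg, Map4k1 and Prrc2b, among genes of at least 10 CPM. Their correlations with it were 0.999 for Tpx2, 0.997 for Tarm1, 0.996 for Nampt, Speg and Map4k1 and 0.995 for Prrc2b, over 6 libraries. Their log2 fold changes were 0.27, 1.61, 0.43, 1.01, 0.33 and 0.32 in that order. Since the mean profile is itself split by group, their direction follows from how they were chosen.

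Other noncoding hosts fell on both sides of the WT level. Of 13 listed, 12 were in the table and 8 were tested. None passed the test in either direction (edgeR), 2 in each direction had an unadjusted p under 0.05, DESeq2 called 2 higher and limma-voom none. Their median log2 fold change was 0.06, with 4 of 8 above 0. Snhg17 had 120, 92.1 and 109 CPM in S34F and 83.5, 76.5 and 72.0 CPM in WT, a log2 fold change of 0.47 ± 0.13 (SE, adjusted p = 0.0927). All S34F libraries lay above all WT libraries for 2 of the 8 and below them for 3, against 14% and 13.1% of all genes tested. The 3 lower hosts were Snhg4 (-0.53 ± 0.20 SE), Snhg10 (-0.51 ± 0.31) and Snhg20 (-0.47 ± 0.16). With the replicate block 2 of the 8 passed as higher and 1 as lower. Over all 13444 genes tested, 50.1% were above 0, and the replicate block called 878 higher and 540 lower. Among the same genes limma-voom called 201 higher and 70 lower. DESeq2 called 691 genes higher and 389 lower, but it was run on the unfiltered counts, so these are not shares of the 13444. These values are the background for this list and for those below. The share of all genes with an unadjusted p under 0.05 was not computed, so counts at that cut have no background here.

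**Figure D4:**
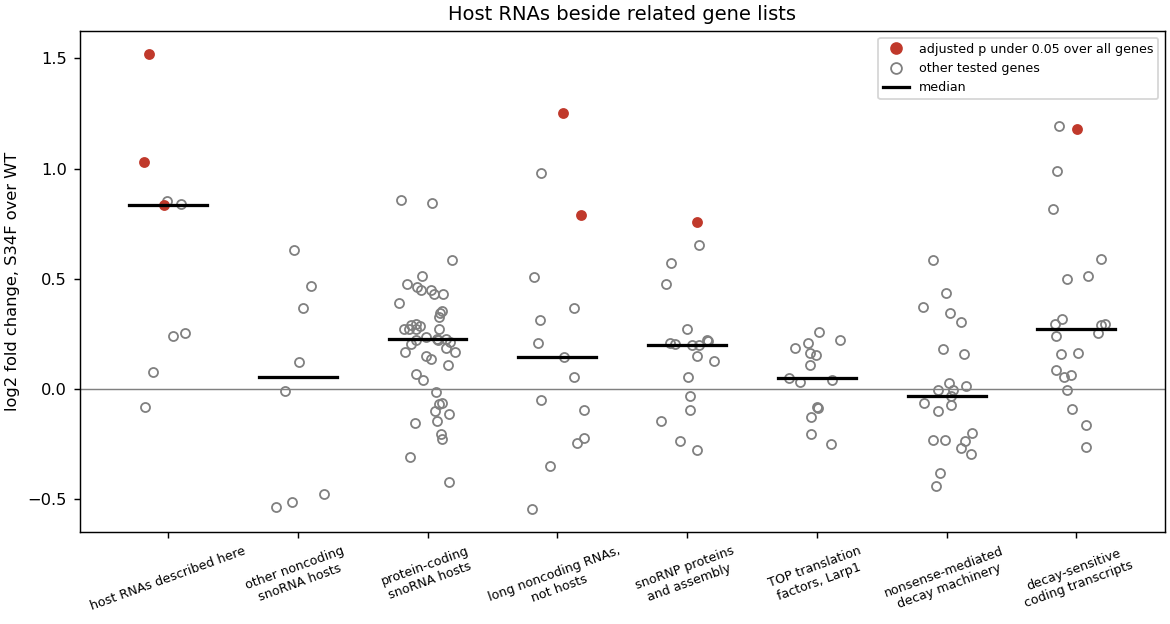
Log2 fold change, S34F over WT, of each tested gene in the host RNAs and 7 related lists, with filled red points for an adjusted p under 0.05 and a line at each median. The medians are 0.83 in the host RNAs described here, 0.06 in the other noncoding hosts and 0.23 in protein-coding hosts.

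Protein-coding hosts release snoRNAs from introns of genes such as those of ribosomal proteins. Of 47 tested, none passed in edgeR or limma-voom, 13 higher and 1 lower had an unadjusted p under 0.05, and DESeq2 called 5 higher and 1 lower. With the replicate block 8 passed as higher and 1 as lower. Their median log2 fold change was 0.23, and 36 of 47 were above 0, against 50.1% of all genes tested. The smallest p was that of the ribosomal protein gene Rpl13, with 1434, 1310 and 1381 CPM in S34F and 1112, 940 and 941 CPM in WT (log2 fold change 0.46 ± 0.12 SE, adjusted p = 0.0822).

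Genes of the decay machinery did not pass the test, with 0 of 23 called in edgeR and limma-voom. An unadjusted p under 0.05 was found for 3 higher and 4 lower, and DESeq2 and the replicate block each called 1 lower. The median log2 fold change was -0.03. Nbas, which also takes part in decay of such RNAs, had the smallest p, at 50.3, 48.0 and 45.3 CPM in S34F and 63.0, 65.8 and 65.6 CPM in WT (-0.44 ± 0.10 SE, adjusted p = 0.0684). Protein-coding transcripts reported as sensitive to this decay had a median of 0.27 over 22 tested, with 18 above 0 and 1 past the threshold. That gene was Trib3, a pseudokinase of the stress response driven by ATF4. It rose 2.26-fold, with 348, 350 and 484 CPM in S34F and 141, 190 and 192 CPM in WT (adjusted p = 0.0221). DESeq2 called 3 of the 22 higher and the replicate block 4.

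Proteins that build snoRNA particles had a median log2 fold change of 0.20, with 14 of 19 above 0 and 1 past the threshold. Pih1d1, a subunit of the R2TP assembly complex, rose 1.69-fold, with 43.8, 39.8 and 44.8 CPM in S34F and 25.7, 24.98 and 25.4 CPM in WT (edgeR adjusted p = 0.0241). The replicate block called 4 of the 19 higher. Of 15 translation factors and other genes of the TOP class, with their regulator Larp1, none passed in edgeR, DESeq2, limma-voom or the replicate block, and 0 had an unadjusted p under 0.05. Their median was 0.05, and the smallest p was that of Rack1, a ribosome-bound scaffold protein (0.22 ± 0.11 SE, adjusted p = 0.294).

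Long noncoding RNAs that are no snoRNA hosts had a median of 0.15 over 15 tested, with 9 above 0 and 2 past the threshold. Mir22hg, the host of a microRNA, rose 2.38-fold, with 15.1, 15.4 and 12.5 CPM in S34F and 7.12, 5.36 and 5.62 CPM in WT (edgeR adjusted p = 0.0250). Malat1, an abundant nuclear RNA, rose 1.73-fold, with 1154, 1074 and 1437 CPM in S34F and 648, 790 and 680 CPM in WT (adjusted p = 0.0372). Some noncoding RNAs without snoRNAs were therefore also higher in S34F cells. Trib3, Pih1d1, Mir22hg and Malat1 all lost their call with WT replicates 2 and 3 summed and without S34F replicate 1, S34F replicate 3, WT replicate 2 or WT replicate 3, and Pih1d1 also with the GC trend removed. With these WT libraries summed, the log2 fold changes were 1.25 for Trib3, 0.75 for Pih1d1, 1.19 for Mir22hg and 0.82 for Malat1. Over the 16 alternatives their log2 fold changes ran from 1.01 to 1.26 for Trib3, 0.59 to 0.81 for Pih1d1, 1.17 to 1.39 for Mir22hg and 0.66 to 0.92 for Malat1. Some lists share genes, such as Rack1, Nop56 and Dkc1.

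Of the 36 snoRNA records inside the 10 hosts, 30 are covered by an annotated exon on the same strand, and all 30 had a count of 0 in the 6 libraries together. Among the 6 that no exon covers, 5 had totals between 38 and 341 counts and Snora73b had 0. Over all snoRNA genes of the table, 20.6% of 1293 uncovered and 8.88% of 214 covered genes had a count. The table therefore gives no level for most of these snoRNAs, and bases shared with a snoRNA are also part of the exon length used for the levels per kilobase.

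Marker levels were set beside the host RNAs. The summed level of the 12 maturing neutrophil and macrophage markers was 270 to 369 CPM in S34F and 245 to 251 in WT. Most of that sum was Adgre1, at 223 to 282 CPM in S34F and 198 to 230 in WT, where the groups overlapped. Of the 7 tested markers 0 were called by edgeR and 2 were higher at an unadjusted p under 0.05. DESeq2 and limma-voom each called 1 higher. Of this list Cd68, a lysosomal protein gene of macrophages, had 32.4, 32.2 and 32.0 CPM in S34F and 19.9, 7.54 and 7.46 CPM in WT (1.47 ± 0.35 SE, adjusted p = 0.0695), and Csf1r, the receptor gene for macrophage growth factor, 16.02, 34.9 and 4.84 CPM in S34F and 10.3, 4.54 and 5.68 CPM in WT (1.44 ± 0.62 SE, adjusted p = 0.217). The neutrophil granule gene S100a8 reached 12.1 CPM in S34F replicate 1 and at most 3.28 CPM in WT, while Camp, Ltf and Ly6g were at or near 0. Of the 7 tested markers of this list 6 had a log2 fold change above 0, and the lowest was -1.06. A list mean is the average log2 level of the tested markers in a library, relative to the WT mean of each marker. The list means were 1.12, 0.64 and -0.20 in S34F and 0.43, -0.30 and -0.13 in WT, so the groups overlapped. The 9 erythroid and megakaryocyte markers summed to 1041 to 1575 CPM in S34F and 748 to 868 in WT, mostly Itga2b and Tfrc. Of these 0 of 5 tested were called by edgeR (2 higher at an unadjusted p under 0.05, 2 by DESeq2 and 1 by limma-voom). The log2 fold change was above 0 for 4 of the 5, and the lowest was -1.05. The list means were 0.22, 0.97 and 0.30 in S34F and 0.19, -0.06 and -0.13 in WT, without overlap. The 10 myeloblast markers summed to 1745 to 2047 CPM in S34F and 1387 to 1633 in WT, and Spi1, a myeloid transcription factor, passed the test (0.60 ± 0.12 SE, adjusted p = 0.0491), though it did so under only 7 of the 16 alternatives and not with WT replicates 2 and 3 summed (0.62) or on leaving out any library but WT replicate 1. DESeq2 and the replicate block each called 3 of the 7 tested myeloblast markers higher, and 3 were higher at an unadjusted p under 0.05. The log2 fold change was above 0 for 6 of the 7, and the lowest was -0.40. The list means were 0.31, 0.44 and -0.03 in S34F and -0.09, 0.04 and 0.05 in WT, so the groups overlapped. T and B cell markers summed to 0.657 to 1.24 CPM in S34F and 1.51 to 2.53 CPM in WT, and fibroblast markers to 5.25 to 20.7 CPM in S34F and 8.82 to 14.2 CPM in WT. The 12 proliferation markers summed to 3640 to 4131 CPM in S34F and 4074 to 4176 in WT, with 0 called by edgeR, DESeq2 or limma-voom (1 higher and 3 lower at an unadjusted p under 0.05), while the replicate block called 1 higher and 3 lower. The part of these in the levels of the host RNAs was not tested.

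Fold changes also followed GC content, with a Spearman correlation of 0.316 across 13433 genes, which are not independent replicates. The median GC content was 45.7% in the 9 host RNAs and 49.1% in all genes tested. With the GC trend removed, 2410006H16Rik had a log2 fold change of 1.41 ± 0.13 (SE), Zfas1 1.05 ± 0.11, Snhg8 0.89 ± 0.14 and Epb41l4aos 0.71 ± 0.19. Their direction was the same as without that step. Of the other hosts, Snhg12 was at 0.87, Snhg1 at 0.42, Snhg5 at 0.31 and Gas5 at 0.21 after that step. Snhg6 changed sign, from -0.08 to 0.06.

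**Figure D5:**
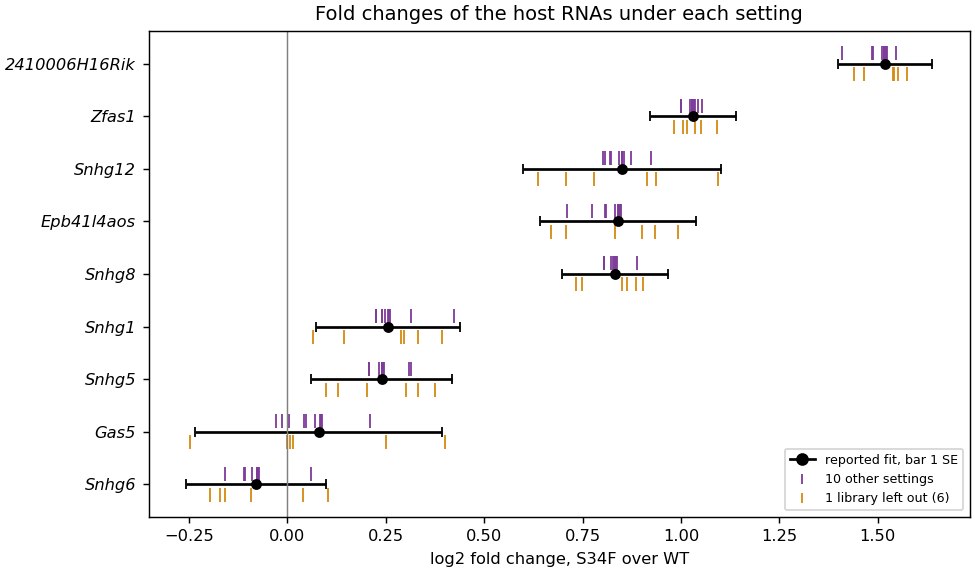
Log2 fold change, S34F over WT, of each tested host RNA in the reported fit (black, bar of 1 SE), under 10 other settings (purple) and with 1 library left out (orange). The marks of 2410006H16Rik (1.41 to 1.57) and Zfas1 (0.98 to 1.09) stay far from 0, while those of Gas5 (-0.25 to 0.40) and Snhg6 (-0.20 to 0.10) lie on both sides of it.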

How the data were processed

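For 6 messenger RNA libraries of 32D cells the authors deposited a table of raw counts per gene, as whole numbers. HISAT2 and featureCounts are named with the build mm10, per the submitters' processing notes. The kit was directional per the labels' protocols. Their versions, the annotation, the use of strand and the treatment of multi-mapped reads were not given in the sources used, so reads in overlapping genes could not be assigned with certainty. GENCODE M21 held 54409 of the 54532 gene IDs.

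Counts were filtered with filterByExpr and tested in edgeR 4.0.16 (R 4.3.3) with TMM normalisation and the robust quasi-likelihood F test, two-sided, with Benjamini-Hochberg adjustment over all genes and a threshold of 0.05. The design held the genotype alone. The procedure was also run on simulated counts of independent libraries. WT replicates 2 and 3 were much alike in these data, so that run does not show how the test behaves here. DESeq2 1.42.0 and limma-voom (limma 3.58.1), other scalings and filters, removal of the GC trend (loess, span 0.5), the sum of WT replicates 2 and 3, the replicate block and each library left out were the alternatives. A count of 0 allows up to 3 counts (0.156 to 0.182 CPM), for counting error only.

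Same-numbered S34F and WT libraries deviated together from their group means, with correlations of 0.469, 0.247 and 0.139 for numbers 1 to 3 over 8908 genes. They were taken as pairs in the replicate block on this ground from the data, since the labels give a number and no shared batch. S34F replicate 2 also correlated at 0.225 with WT replicate 3, and S34F replicate 3 at 0.160 with WT replicate 2. Deviations within a group cancel out, so these correlations are not independent and do not settle how numbers 2 and 3 pair. Results with the replicate block thus rest on a pairing chosen from these same data.

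The host RNAs, lists and tests were chosen with earlier results of these data known. Named genes were the 10 host RNAs, from each related list up to 3 called genes with the smallest p or the 1 with the smallest p, the 6 genes nearest to the mean host profile, and genes or snoRNAs that overlap a host. Others were named after their values were seen. Snhg7 of the lists matched no gene, and 1810032O08Rik, 1700020I14Rik and Gm14005 stand for Snhg16, Oip5os1 and Morrbid. Plots were made in Python 3.11.15 with matplotlib 3.10.9.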

Additional observations from a re-analysis of the deposited data

How the results depend on the processing

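Among all genes tested, 293 were called. With no count filter 763 were called, and 1080 with DESeq2, which was also run on the unfiltered counts. The number was 163 with the GC trend removed, 20 with WT replicates 2 and 3 summed, and 19 to 1177 with 1 library left out. With the replicate block, which treats same-numbered libraries as pairs on the ground of these data, 1418 were called. Of the host RNAs 3 were called, against 5 with DESeq2 and 5 with the replicate block, 2 with WT replicates 2 and 3 summed and 2 to 4 with 1 library left out. Their median log2 fold change of 0.83 became 0.71 with the GC trend removed and 0.64 to 0.83 with 1 library left out. These counts describe genes listed with the contrast known and support nothing. Of the 9 tested, only Gas5 and Snhg6 changed sign under any of the 16 alternatives. The cause of these shifts was not tested. Counts of Snhg3 and the snoRNA genes are few, and splice forms were not analysed here, since the table used gives counts per gene.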
